A study of Capra hircus with 2 samples.

Results

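The microRNAs (miRNAs) miR-451, miR-144 and miR-486 are known from red blood cells, and their level in a tissue pool is commonly read as a gauge of the blood it holds. Here they were followed in the endometrium of Xinong Saanen dairy goats. Members were all names in the table of known miRNAs that stand for miR-451, miR-451a, miR-144 or miR-486 in any species, arm or end variant, with repeated names counted once. This gave 6 of 587 distinct names, namely 4 for miR-144, 1 for miR-451, 1 for miR-486 and 0 for miR-451a. The 6 names stood for 4 different sequences, because each arm of the miR-144 hairpin was listed under 2 species' names with the same sequence. The goats were 24 months old, had borne young before, were synchronized in estrus and mated naturally. Endometrium was taken from 10 goats on gestational day 5 (pre-receptive) and from 10 goats on gestational day 15 (receptive), with mating as day 0. Per the methods of the study the RNA of lowest quality in each phase was left out, so fewer goats than were sampled entered the library. The rest were mixed into several pools of equal concentration and sequenced more than once, and values of 1 small RNA library per phase were deposited, R for receptive and P for pre-receptive, so there was no replicate, and every test compares 2 libraries and not the 2 phases. The depth of the known miRNA names was 1904242 reads for R and 4046632 for P.

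miR-144 and miR-451 are made from a single primary transcript that the red cell factor GATA1 switches on. miR-451 is unusual in that its short hairpin is cut by Argonaute 2 and not by Dicer, and it is among the most abundant miRNAs of mature red cells. miR-486 lies within the gene for ankyrin 1, a protein of the red cell membrane, and is also known from striated muscle. The endometrium is rich in vessels, and its blood content, gland epithelium and stroma all contribute RNA to a pool. In the goat annotation ARS1.2 from RefSeq, MIR451 and MIR144 are direct neighbors with 0 genes between them. The table that lists the species sharing each known miRNA had a miR-144 hairpin for 16 of 23 species and a miR-486 hairpin for 9 of 23. A miR-451 hairpin was listed for 9 species and a miR-451a hairpin for human and mouse, and all 11 of these species also had miR-144.

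The sequences are shown because the names alone hide which molecule was counted. Capitals mark bases 2 to 8 from the 5′ end, the seed that pairs with target mRNAs. For miR-451 and miR-144-5p the reference sequence that the table gives follows the one detected in goat endometrium.
miR-486-5p: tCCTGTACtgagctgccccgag
miR-144-3p: tACAGTATagatgatgtact
miR-144-5p detected: tGGGATATcatcatatactgt
miR-144-5p reference: gGATATCAtcatatactgtaag
miR-451 detected: aTCAAACCgttaccattactgagt
miR-451 reference: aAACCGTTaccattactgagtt
miR-101b-3p: tACAGTACtgtgataactgaat

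miR-486-5p, with 22 bases, and miR-144-3p, with 20 bases, were identical to their reference. The detected miR-144-5p had 21 bases, began 2 bases before its reference and matched it over all 19 shared bases. The detected miR-451 had 24 bases, began 3 bases before its reference and matched it over all 21 shared bases. In both of these the earlier start moves the seed to other bases, so the capitals of the detected and the reference sequence differ. The 4 member sequences had 4 different seeds, and 0 other names of the known and candidate tables shared bases 2 to 8 with any of them. cgr-miR-101b-3p_1ss22GT shared bases 2 to 7 with miR-144-3p and differed at the next base (T8C, where T is the base of miR-144-3p and positions count from the 5′ end). A candidate, PC-5p-547859_1, shared bases 2 to 7 with the detected miR-451 and had 1 read in R and 0 in P. Of the 1208 names of both tables, 0 outside the members held 16 consecutive bases of a member. A variant with a changed base near its middle would escape this search.

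miR-486-5p was by far the most abundant member in both libraries, the arms of miR-144 were well below it, and the only listed miR-451 form was at the edge of detection. Levels are the deposited normalized values, which are reads multiplied by a constant of each library. cgr-miR-486-5p had 5052 in R and 8073 in P, from 5875 and 6942 reads. It was at rank 32 of the 587 known names in R and at rank 27 in P. Each of the 2 miR-144-5p names (hsa-miR-144-5p_L+2R-3 and cgr-miR-144_L+2R-3) had 273 in R and 476 in P. Each of the 2 miR-144-3p names (hsa-miR-144-3p and aja-miR-144) had 253 in R and 198.9 in P. The reads of a shared sequence had been divided equally between its names, and the undivided reads were 636 and 819 for miR-144-5p and 589 and 342 for miR-144-3p. ssc-miR-451_L+3R-1 had 1.72 in R and 1.16 in P, which are 2 reads and 1 read.

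The order of the members was the same in both libraries, from miR-486-5p through miR-144-5p and miR-144-3p to miR-451. In the R library the arms of miR-144 were neighbors that did not differ beyond counting error, with 95% exact Poisson intervals of 244 to 305 for a 5p name and 226 to 284 for a 3p name. In the P library the corresponding intervals, 431 to 524 and 170 to 231, did not overlap. These intervals, like all others here, cover counting error only, since reads copied by PCR are not independent molecules. For miR-451 the interval ran from 0.208 to 6.21 in R and from 0.0294 to 6.48 in P, so a difference between the libraries was not detectable at this depth.

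**Figure D1:**
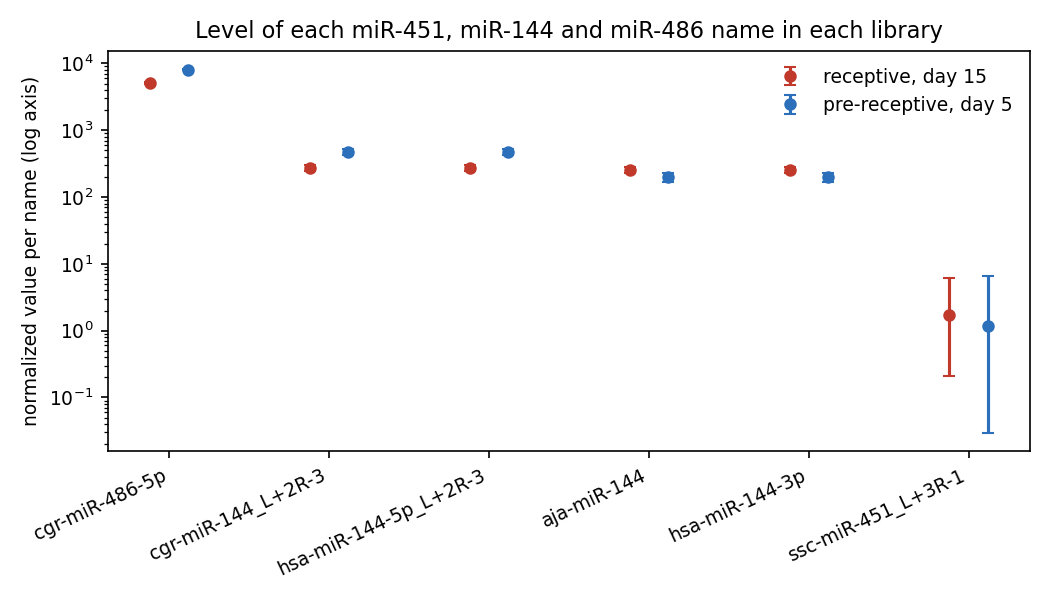
Normalized value of each of the 6 names (log axis) in the receptive (red) and pre-receptive (blue) library, with 95% exact Poisson intervals of the reads. cgr-miR-486-5p lies at 5052 and 8073, the miR-144 names lie between 198.9 and 476, and ssc-miR-451_L+3R-1 lies at 1.72 and 1.16 with wide intervals.

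The red cell origin in the label could not be checked with miR-451, the member most abundant in mature red cells. Its only listed form was the 24-base sequence with the earlier start, whose reads did not exceed the 3 that a count of 0 allows. No name with the reference sequence was listed, and whether the tissue held that form was not tested. The members are called by their names here and not by a cell type. The listed miR-451 form took 0.163% of the listed miR-144 and miR-451 reads in R (95% exact binomial interval 0.0197 to 0.588%) and 0.0861% in P (0.00218 to 0.479%). These shares hold no information on the reference form of miR-451, which was not listed. There were 1225 miR-144 reads of both arms in R and 1161 in P. miR-486-5p outnumbered the listed miR-451 form by 2938 to 1 in R and by 6942 to 1 in P, ratios that rest on 2 reads and 1 read of that form.

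Between the libraries, the members did not move together. On the scale of the deposited values cgr-miR-486-5p had a log2 ratio of R to P of -0.68 (95% exact interval -0.73 to -0.63), which is a level 1.60 times as high in P. On that scale each miR-144-5p name had a log2 ratio of -0.80 (-1.01 to -0.58), or 1.74 times as high in P. The miR-144-3p names lay on the other side, with a log2 ratio of 0.35 (0.07 to 0.63) and a level 1.27 times as high in R. These intervals of the miR-144 names rest on divided reads. With all reads of the sequence they were -0.95 to -0.65 for miR-144-5p and 0.15 to 0.55 for miR-144-3p. ssc-miR-451_L+3R-1 had a log2 ratio of 0.56 with an interval from -3.70 to 6.45. In bulk tissue, fewer cells of a type and less RNA per cell cannot be told apart.

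All 6 names passed the filter on low values, and 0 of 6 differed by more than 2-fold on the deposited scale. Over all 564 tested names of the known and candidate tables, 129 (22.9%) had a log2 ratio above 1 and 102 (18.1%) had one below -1. The median log2 ratio was -0.16 for the 6 members and -0.07 for all tested names. The member median rests on miR-451 with its 3 reads in all: with at least 10 reads required in 1 library, which leaves out miR-451, it was -0.68, against 0.11 for the tested names. miR-486-5p had a higher ratio than 25.2% of the tested names, miR-144-5p than 21.5% and miR-144-3p than 61.5%. Thus miR-486-5p and miR-144-5p lay in the lower part of the distribution and miR-144-3p above its median, while miR-451 had too few reads to be placed.

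The direction of miR-486-5p and miR-144-5p depended on how the libraries were put on a common scale. Scaled to the clean reads of each library, those left after the authors' filters, the log2 ratio of miR-486-5p became 0.11 and that of miR-144-5p -0.02, and scaled to the reads listed in the known and candidate tables they became 0.84 and 0.72. miR-144-3p was above 0 in every scaling tried, with 1.13 on clean reads and 1.87 on listed reads. These scalings raise every name alike, by 0.78 for clean reads and by 1.52 for listed reads, and the median of all tested names rose with them to 0.71 and 1.45. Since a scaling adds the same amount to every log2 ratio, it cannot change the place of a name relative to that median, with miR-486-5p and miR-144-5p below it and miR-144-3p above. A single name, aja-miR-143_1ss22GT, held 17.6% of the listed reads in R and 39.6% in P, and without it the ratios on listed reads were 0.39 for miR-486-5p, 0.27 for miR-144-5p and 1.42 for miR-144-3p. Past the 2-fold limit, the tested names split into 234 above and 42 below on clean reads, and into 404 above and 16 below on listed reads.

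**Figure D2:**
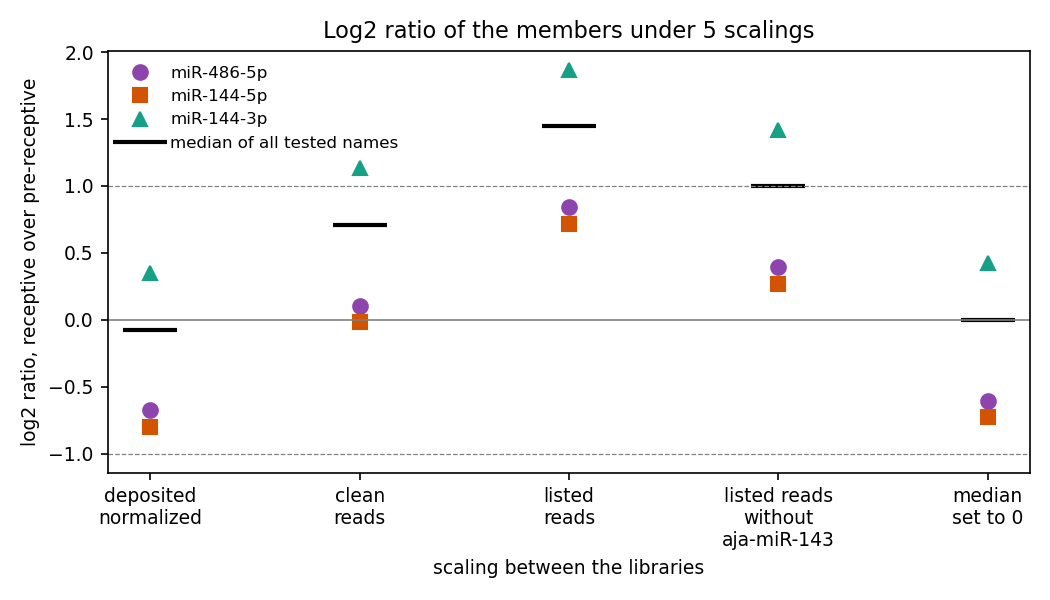
Log2 ratio of the receptive to the pre-receptive library (vertical axis) for miR-486-5p, miR-144-5p and miR-144-3p under 5 scalings, with the median of the 564 tested names as a black bar and the 2-fold limits dashed; miR-451 is left out for its 3 reads. miR-486-5p goes from -0.68 on deposited values to 0.84 on listed reads, and each scaling shifts all names and the median by the same amount.

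Fisher's exact test (two-sided), which set the reads of a name against the remaining clean reads of its library, therefore answers for the clean read scale. This exact test gave p = 6.4e-17 for a miR-144-3p name (Benjamini-Hochberg adjusted over the 564 tested names, 3.11e-16), with a log2 ratio of 1.13 on that scale. The exact test gave p = 3.21e-05 for cgr-miR-486-5p (adjusted 0.000102), with a log2 ratio of 0.11, which is a small difference that the high read number makes visible. For a miR-144-5p name the exact test gave p = 0.911 (adjusted 1), and for ssc-miR-451_L+3R-1 it gave p = 0.586 (adjusted 0.772). A call needed both an unadjusted P-value under 0.05 and a deposited ratio past 2-fold, and 0 of 6 members met it, against 103 (18.3%) of the tested names higher and 40 (7.09%) lower in R. The rule joins 2 scales that differ by 0.78, so it calls a name lower in R less readily than higher. Of the names past 2-fold on the deposited scale, 103 of 129 were called higher and 40 of 102 lower. With the ratio on clean reads both miR-144-3p names were called higher in R, and so were 180 (31.9%) of the tested names. All of this covers counting error only. If names are assumed to vary between pools with a coefficient of variation of 0.4, the deposited ratios of miR-486-5p, miR-144-5p, miR-144-3p and miR-451 were not past the threshold.

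As a share of the reads of all known names, the sum of the members was higher in R, whereas on the deposited scale it was higher in P. All 4 sequences together had 7102 reads in R, 0.373% of the known miRNA reads (95% exact binomial interval 0.364 to 0.382%). They had 8104 reads in P, 0.200% of the known miRNA reads (0.196 to 0.205%). On the deposited scale the same sums were 6107 and 9425, a log2 ratio of -0.63. miR-486-5p made up 82.7% of these reads in R and 85.7% in P, so the sum is in the main a measure of miR-486-5p. A statement on which pool held more of these miRNAs therefore rests on the scale chosen.

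A ratio of 2 names within a library does not depend on that scale. Of the 21 pairs compared on the reads of 1 name each, 15 had an adjusted P-value under 0.05 by Fisher's exact test. With all reads of a sequence added, 17 did. The 3 pairs with miR-451 were not among them in either count. These tests count reads only. Where each name was assumed to vary between pools with a coefficient of variation of 0.4, the pairs with oar-miR-133_L+1 were the 3 that stayed past the threshold. The ratio of miR-486-5p to miR-144-5p did not change beyond counting error. There were 9.24 reads of miR-486-5p for each undivided read of miR-144-5p in R and 8.48 in P, and the change of the log2 ratio was 0.12 (95% exact conditional interval -0.10 to 0.34, adjusted exact p = 0.331). miR-486-5p fell against miR-144-3p, from 20.3 reads for each read in P to 9.97 in R, a change of -1.03 (-1.31 to -0.75, adjusted exact p = 2.69e-13).

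The arms of miR-144, which come from the same hairpin, changed their ratio to each other. miR-144-3p reached 0.926 reads for each read of miR-144-5p in R and 0.418 in P. The 3p arm took 48.1% of the miR-144 reads in R (95% exact binomial interval 45.3 to 50.9%) and 29.5% in P (26.8 to 32.2%). The change of the log2 ratio was 1.15 (0.80 to 1.505, adjusted exact p = 6.92e-11) on the reads of 1 name per arm. With both arms added together, miR-144 had a log2 ratio of -0.36 (-0.48 to -0.24) on the deposited scale, a value that hides the opposite signs of its arms there.

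An arm change of this size was not rare among the hairpin numbers compared. Among 45 hairpin numbers with a named 5p and a named 3p arm and at least 10 reads for each in the mean of the libraries, 7 (15.6%) changed by more than 1 log2 unit toward the 3p arm in R, and miR-144 was 1 of them. It ranked 6 of 45, and 9 hairpin numbers, miR-144 included, had a change at least as large in either direction. Changes ran from -2.63 to 3.36 with a median of 0.18. The miR-144 change was well above that median and within the range of the other hairpins. Names that state no arm were left out, so for some hairpins a minor variant stood for an arm. For miR-26a this was hsa-miR-26a-5p_R+1_1ss4AN with 38.3 in R, where oar-miR-26a had 142847. The rank of miR-144 rests in part on such ratios.

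**Figure D3:**
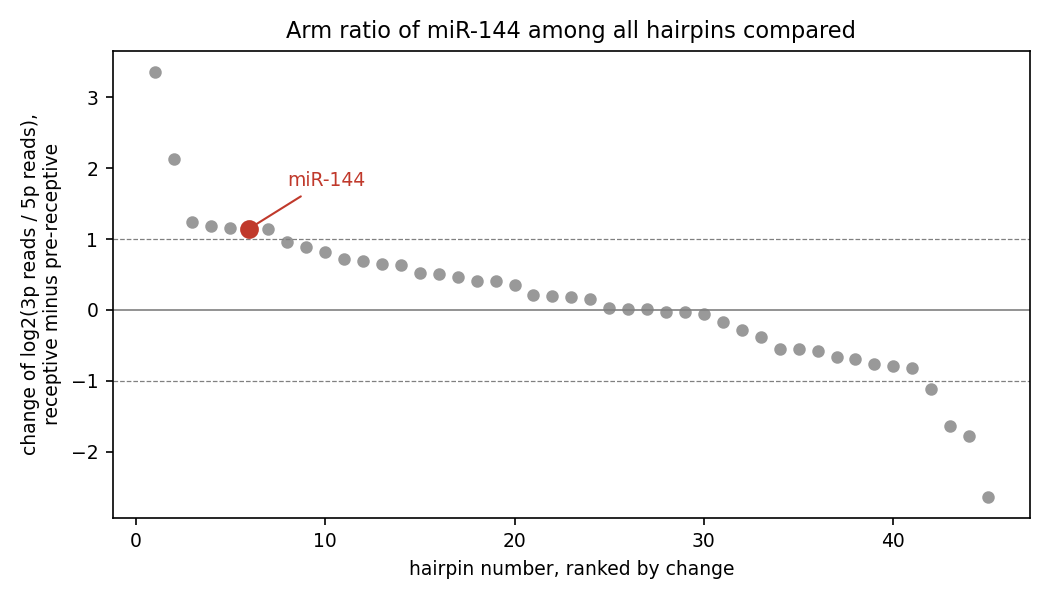
Change between the libraries of the log2 ratio of 3p to 5p reads (vertical axis, receptive minus pre-receptive) for 45 hairpin numbers ranked from the highest, with miR-144 in red and the 2-fold limits dashed. miR-144, at 1.15, ranks 6 of 45.

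Against miRNAs of other cells, miR-486-5p and miR-144-5p fell relative to the endothelial miR-126. All 3 sequences other than miR-451 fell relative to miR-142-5p of leukocytes and rose relative to miR-133 of striated muscle. miR-126 is the main miRNA of vessel endothelium, and against hsa-miR-126-3p the log2 ratio of miR-486-5p changed by -1.26 (95% exact conditional interval -1.33 to -1.19). miR-144-5p changed by -1.38 against the same name (-1.60 to -1.16, adjusted exact p = 1.62e-35). miR-144-3p changed by only -0.23 (-0.51 to 0.05, adjusted exact p = 0.136), and with the reads of its 2 names added the adjusted exact p was 0.0273. Against hsa-miR-126-5p the changes were -1.32 for miR-486-5p and -1.44 for miR-144-5p, and -0.29 for miR-144-3p (adjusted exact p = 0.0535, and 0.00423 with the reads of its 2 names added). So 2 of the 3 sequences fell against endothelial miR-126 by more than 2-fold. The changes of miR-144-3p were smaller. The test on 1 of its names used only that name's part of the divided reads, and with all reads of the sequence the adjusted exact p was under 0.05.

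Against cgr-miR-142-5p_L-2R+1, the most abundant leukocyte name, the changes were larger, of -1.85 for miR-486-5p (-1.92 to -1.78), -1.97 for miR-144-5p (-2.19 to -1.75) and -0.82 for miR-144-3p (-1.10 to -0.54). Of the 4 tested leukocyte names 3 had a log2 ratio of R to P above 0 on the deposited scale, namely both arms of miR-142 at 1.17 and 1.19 and bta-miR-146a_R-1_1ss23GA at 0.23. The exception was hsa-miR-155-5p at -0.71, between miR-486-5p and miR-144-5p. cgr-miR-23b-3p was the nearest available counterpart of miR-23a, whose ratio to miR-451 is used to detect burst red cells in plasma. Against it miR-486-5p changed by -0.26 (-0.33 to -0.19), miR-144-5p by -0.38 (-0.60 to -0.16) and miR-144-3p by 0.77 (0.49 to 1.05). Of the comparators, miR-23b-3p left miR-486-5p and miR-144-5p nearest to no change.

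miR-486 is also found in striated muscle, which makes the muscle miRNA oar-miR-133_L+1 of interest. It had a normalized value of 144.9 in R and 3558 in P, in each of its 2 entries. Against it miR-486-5p rose by 3.94 log2 units in R (3.77 to 4.11), miR-144-5p by 3.82 (3.55 to 4.09) and miR-144-3p by 4.97 (4.65 to 5.29). Whether muscle contributed to miR-486-5p was not tested.

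**Figure D4:**
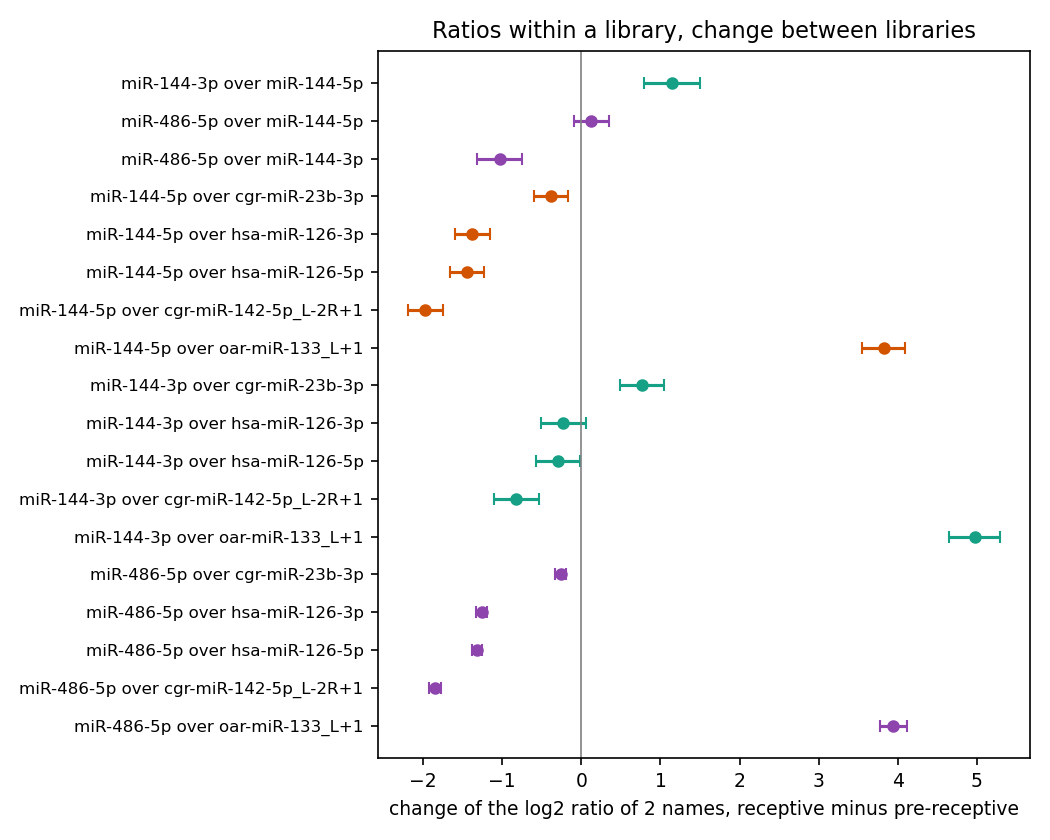
Change between the libraries of the log2 ratio of 2 names (horizontal axis, receptive minus pre-receptive) for the 18 pairs without miR-451, with 95% exact conditional intervals. miR-486-5p over miR-144-5p, at 0.12, is near 0, and the pairs with oar-miR-133_L+1 lie between 3.82 and 4.97.

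Lists of miRNAs known from other cell types give the setting of these values, each described on the deposited scale. Of 13 further miRNA numbers abundant in red cells, many of them also made in other tissues, 9 had a name, and 12 names were tested, with a median log2 ratio of 0.44. Their sum was 12492 in R and 13952 in P, led by oar-miR-16b_R+2 with 7323 and 7470. miR-16a, miR-25, miR-425 and miR-93 had no name listed. Of these 12 names 7 had a ratio above 0 and 5 below, and 2 passed the 2-fold limit in each direction. With listed reads as the scale, all 12 were above 0, as were 92.02% of all tested names.

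The leukocyte, endothelial and epithelial lists had medians above 0 on the deposited scale, where miR-486-5p and miR-144-5p were below it. Of 4 tested leukocyte names 2, both arms of the miR-142 hairpin, were called higher in R, with sums of 13924 and 7927, led by cgr-miR-142-5p_L-2R+1 with 5689 and 2524 in each of its 2 entries. The next most abundant leukocyte name, hsa-miR-155-5p, had the opposite sign with 1348 in R and 2211 in P. The myeloid miR-223 was listed with 1 read in R and at 0 in P. The 4 endothelial miR-126 names, of which 0 were called, summed to 32862 and 21303, led by hsa-miR-126-5p with 23369 and 14956. The epithelial list, led by hsa-miR-141-3p_R-1 with 28337 and 5791, had 7 of 9 tested names called higher in R and sums of 33983 and 6637. Over all tested names 18.3% were called higher and 7.09% lower, under a rule that calls lower names less readily.

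The muscle lists had medians below those of the members on the deposited scale. All 4 names of the smooth muscle pair miR-143 and miR-145 were called lower in R, led by aja-miR-143_1ss22GT at a log2 ratio of -2.69. Of 6 tested striated muscle names 4 were called lower, beside 7.09% of all tested names, with sums of 356 and 7395, and miR-208a, known from heart muscle, had 1 read in P and 0 in R, too few for a comparison. The fibroblast and stroma list, led by oar-miR-199a-3p with 82015 and 84822, had 0 of 7 names called and a median log2 ratio of -0.05. On listed reads 1 of the 4 smooth muscle and 2 of the 6 striated muscle names turned above 0, against 92.02% of all tested names above 0 on that scale. The members stayed inside the 2-fold limits on deposited values. Of the tested names, 8 of 9 epithelial names lay above these limits, beside 22.9% of all tested names. Below them lay 4 of 4 smooth muscle and 5 of 6 striated muscle names, beside 18.1% of all tested names. The part of these lists in the ratios of miR-144 and miR-486 was not tested.

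The liver miRNA miR-122, a plasma component, was counted with 9 reads for R and 3 for P, a log2 ratio of 1.15 that met the call rule on these few reads, as no member did. Of the miRNAs that are lowered as red cells mature, hsa-miR-155-5p had 1348 and 2211 and a log2 ratio of -0.71, close to that of miR-486-5p, while hsa-miR-222-3p_R+2 had a ratio of 0.93 and miR-221 had no name listed.

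**Figure D5:**
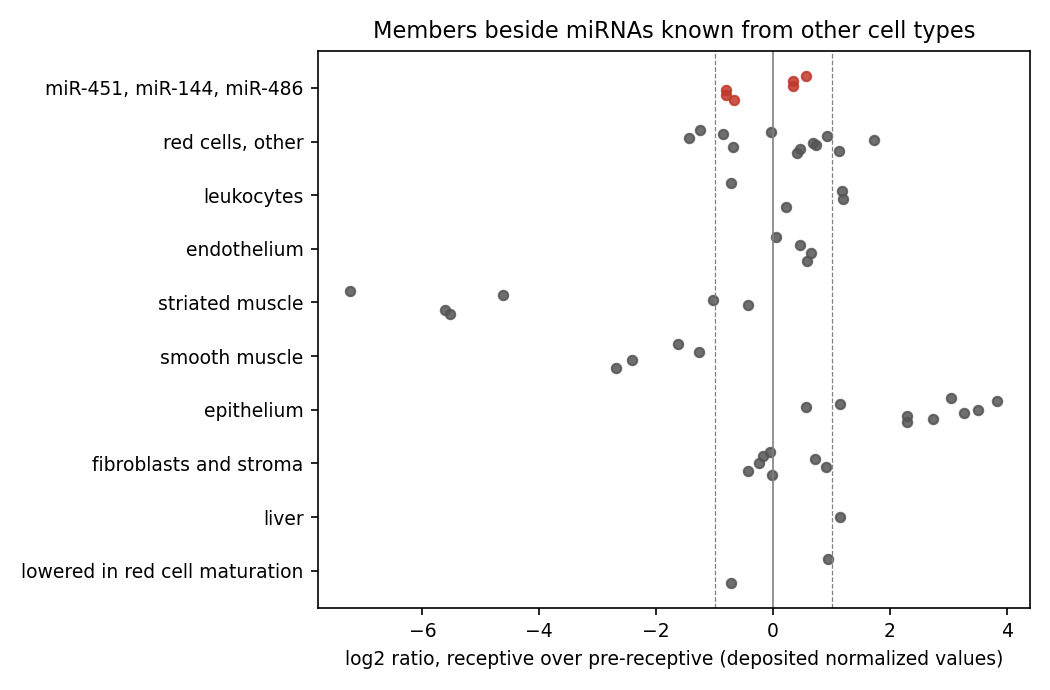
Log2 ratio of the receptive to the pre-receptive library on deposited values (horizontal axis) for the 6 member names (red) and the tested names of 9 lists, 1 point per name, with the 2-fold limits dashed. The members lie between -0.80 and 0.56, inside the limits, and other scalings move all points alike.

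Names of similar level and ratio were sought among the 296 names with at least 10 reads in each library. This was done for each member except miR-451, which had too few reads. Likeness was the distance in the plane of log2 ratio and log2 mean level, over 2 libraries only. For miR-144 the level was that of 1 name with its part of the divided reads, so the neighbors are those of a name. The whole sequence had a higher level, with 547 in R and 952 in P for miR-144-5p and 506 and 398 for miR-144-3p. Nearest to miR-486-5p were hsa-miR-140-3p_L-1R+2 at a distance of 0.16, hsa-miR-151a-3p_R+1 at 0.19 and oar-let-7b_R+2 at 0.22. Nearest to miR-144-5p were sha-miR-125a_R+2 at 0.22, ggo-miR-421_R+1 at 0.29 and bta-miR-455-5p at 0.43. Nearest to miR-144-3p were oar-miR-376c-3p_1ss6AG at 0.26, mmu-let-7d-3p at 0.37 and hsa-let-7b-3p_1ss22CT at 0.37. miR-144-5p and miR-144-3p shared no near neighbor.

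The name that shares bases 2 to 7 with miR-144-3p did not share its pattern. cgr-miR-101b-3p_1ss22GT had 8689 in R and 43585 in P, a log2 ratio of -2.33 on the deposited scale and -0.81 on listed reads, where miR-144-3p had 0.35 and 1.87. Beside it miR-144-3p was the minor carrier of these bases in both libraries. In the deposited list of 87779 predicted pairs of a miRNA and a target transcript, 0 pairs named a member, as the list was made for differentially expressed miRNAs and holds no information on the targets of the others.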

How the data were processed

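Small RNA of pooled goat endometrium was sequenced as 1 receptive and 1 pre-receptive library. Per the methods of the study, the authors removed adapter dimers, junk, other RNA families and repeats with ACGT101-miR and matched reads of miRNA length to miRBase precursors by BLAST; they used a goat genome database, whose build was not given in the sources used here. The deposited values are a normalized signal, reads multiplied by 0.860 (R) or 1.16 (P), and do not follow a per-million formula; 75.0% and 80.3% of them were whole reads within 0.01, the others fractions of reads divided between names. In the candidate table the library labels were exchanged: 70 of 70 names shared with the differential expression table had equal values only then. That table's fold changes and P-values were not used. Names present in both libraries and reaching a value of 1 in either were tested with Fisher's exact test in scipy 1.17.1, and the procedure was tested on simulated data. Clean read totals came from the study. Named miRNAs are the members, the comparators, the most abundant name of each list, seed sharers and the 3 nearest names; miR-142-3p, miR-146a, miR-222, miR-223 and miR-208a were added after their values were seen. Members and lists were chosen with earlier results of these data known.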

Additional observations from a re-analysis of the deposited data

How the results depend on the processing

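No paired analysis was possible because each phase had 1 library, and no replicate could be left out for the same reason. Scaling changed the ratios of single names and the counts, and it cannot change ratios within a library. On clean reads, listed reads and listed reads without aja-miR-143_1ss22GT, the log2 ratio of miR-486-5p turned to 0.11, 0.84 and 0.39. That of miR-144-5p turned to 0.72 and 0.27 on the latter pair, and that of miR-144-3p passed the 2-fold limit at 1.13, 1.87 and 1.42. With the same 3 scalings the median of the members became 0.62, 1.35 and 0.91 and that of the tested names 0.71, 1.45 and 1.00. Then 3 of 6 members in each were above 2-fold, namely the 2 names of the single miR-144-3p sequence and miR-451 with its 2 reads and 1 read. Of the 564 tested names, 234, 404 and 281 were above and 42, 16 and 25 below. Called higher were 180, 233 and 200 of them, and called lower were 22, 12 and 20.

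Requiring 10 reads in 1 library left 56 names below 2-fold, a median of 0.11 for tested names and of -0.68 for the members, as it leaves out miR-451. Known names only, tried after the data had been seen, gave a median of 0.029. Assuming that names vary between pools with a coefficient of variation of 0.4, 3 of the 15 pairs stayed past the threshold, all with oar-miR-133_L+1, and the changes of 1.15 for miR-144-3p over miR-144-5p and -1.03 for miR-486-5p over miR-144-3p did not. The P-values of the deposited member ratios were then 0.407 for miR-486-5p, 0.331 for miR-144-5p, 0.674 for miR-144-3p and 0.772 for miR-451. Adding 0.5 read turned miR-144-3p over miR-451 to 0.048. A minimum of 50 reads left 25 hairpin numbers, 4 of them above 1, and a minimum of 3 reads gave 12 of 61 above 1. Setting the median to 0, a pseudocount of 1, the exact binomial test and the adjusted P-value kept each member's direction and its call, which the 2-fold limit decides, although the exact binomial P-value of miR-144-5p was 1.05e-13 against 0.911 in Fisher's exact test, since the binomial test follows the deposited scale, and neither no filter nor counting by sequence moved the counts of tested names by over 1.5 times. With 2 reads and 1 read of its only listed form, the data limit any statement on miR-451.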
